A study of Homo sapiens with 6 samples.

Results

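Genes of cholesterol synthesis, sterol sensing, uptake and esterification were compared between the Huh7 parental (Huh7 P) and lenvatinib-resistant (Huh7 LR) cell lines. The 28 genes were taken from the deposited gene table by symbol, and all 28 were found among 26184 listed genes and loci, of which 19974 are annotated genes. They comprise 18 enzymes that build cholesterol from acetyl-CoA, 4 genes of the sterol sensor, 4 genes of uptake, transport and receptor turnover, and 2 enzymes that esterify cholesterol. Other genes of the pathway were not analysed here, apart from those of 5 further lists described after the members.

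RNA was sequenced from 3 independent samples of each line. Huh7 P is an established human hepatocellular carcinoma line. Huh7 LR is a single line derived from it, in which lenvatinib, an inhibitor of several receptor tyrosine kinases, was raised stepwise from 1 μM over about 10 months, after which the line was kept in 20 μM. Whether the drug was in the medium when RNA was collected is not stated, so that a response to the drug and a stable difference of the derived line cannot be told apart. The reads counted on genes totalled 71427573, 62738937 and 66961548 in Huh7 P1 to P3 and 63233655, 70768720 and 67284160 in Huh7 LR1 to LR3. Values per library are TMM-scaled CPM, that is counts relative to library size, and levels of different genes are compared by FPKM, which the authors scaled for transcript length.

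Cholesterol is made in the endoplasmic reticulum from acetyl-CoA by way of mevalonate, isoprenoid diphosphates, squalene and lanosterol. When sterols are scarce, SCAP carries the transcription factor SREBP2 (gene SREBF2) to the Golgi apparatus, where it is cleaved and released to raise transcription of most enzymes of the pathway, often together with the factor NF-Y. When sterols are plentiful, INSIG proteins hold SCAP back. Hepatocytes both make cholesterol and take it up from lipoproteins, and they store the excess as esters.

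The libraries had the gene expression of hepatocyte-derived cells. All 10 hepatocyte markers were at 65.2 CPM or more in each library. Their FPKM summed to 15711, 17527 and 18946 in the Huh7 P libraries, against 21501, 20993 and 22129 in those of Huh7 LR. By FPKM, AFP was the most abundant in Huh7 P and ALB in Huh7 LR. Of the 10, 6 rose (60%, against 23.3% of all genes and loci tested) and none fell (against 22.4%). Among those that rose, ALB rose 1.67-fold, APOA2 2.81-fold and FGB 5.62-fold (adjusted p = 4.68e-05, 3.13e-05 and 1.52e-07). Several defining markers of fibroblasts, leukocytes and endothelial cells were at 0. The 7 fibroblast markers summed to between 0.378 and 0.428 FPKM in Huh7 P and between 0.848 and 1.68 FPKM in Huh7 LR, with COL1A1 the most abundant and DCN and THY1 at 0 in every library, and both markers that could be tested, COL1A1 and PDGFRB, rose (3.58-fold and 1.78-fold, adjusted p = 9.12e-05 and 0.00953). With limma-trend on FPKM with 1 added, the log2 fold change of COL1A1 was 0.56 in place of 1.84. The 6 leukocyte markers summed to 40.9, 40.4 and 37.0 FPKM in Huh7 P and 7.72, 8.10 and 5.94 FPKM in Huh7 LR. LYZ was the most abundant and fell 6.94-fold (adjusted p = 4e-08), HLA-DRA and TYROBP were at 0 in every library and PTPRC did not exceed 0.214 CPM. Of the 4 endothelial markers, which summed to between 5.41 and 6.46 FPKM in Huh7 P and between 8.96 and 9.80 FPKM in Huh7 LR, PECAM1 was the most abundant and rose 1.56-fold (adjusted p = 0.000135), whereas CDH5 and KDR were at 0 in every library. VWF also passed the test (adjusted p = 0.0179) at no more than 0.371 CPM in any library. The 5 enterocyte markers summed to 112, 114 and 110.3 FPKM in Huh7 P and 112, 132 and 123 FPKM in Huh7 LR. VIL1 was the most abundant, FABP2 did not exceed 0.138 CPM, SI and CDX2 rose 3.24-fold and 1.49-fold (adjusted p = 9.19e-06 and 6.9e-05), and APOA4 and VIL1 fell. The part of these markers in the results for the cholesterol genes was not tested.

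The library Huh7 LR1 stood apart from Huh7 LR2 and LR3 in these genes. It held the highest value of the 3 Huh7 LR libraries for 20 of the 28 genes, against 36.3% of all genes and loci tested, whereas Huh7 LR3 held the highest for none. The median log2 ratio of Huh7 LR1 to the mean of the other 2 Huh7 LR libraries was 0.24 over the 28 genes and -0.0027 over all genes and loci. The excess was largest for INSIG1 (1.68-fold), MSMO1 (1.55-fold), STARD4 (1.43-fold) and HMGCS1 (1.43-fold). Huh7 LR1 was also the shallowest of its line and had the largest share of counts at loci without an annotated gene, 3.35% against 2.86% and 3.04%, and the part of either in its sterol gene levels was not tested. It was likewise the highest of its line for 14 of 15 tested lipogenic genes under SREBP1 and the lowest for 14 of 18 proliferation genes, lists that are described after the members. The log2 fold changes of the 28 genes are therefore given with and without it.

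**Figure D1:**
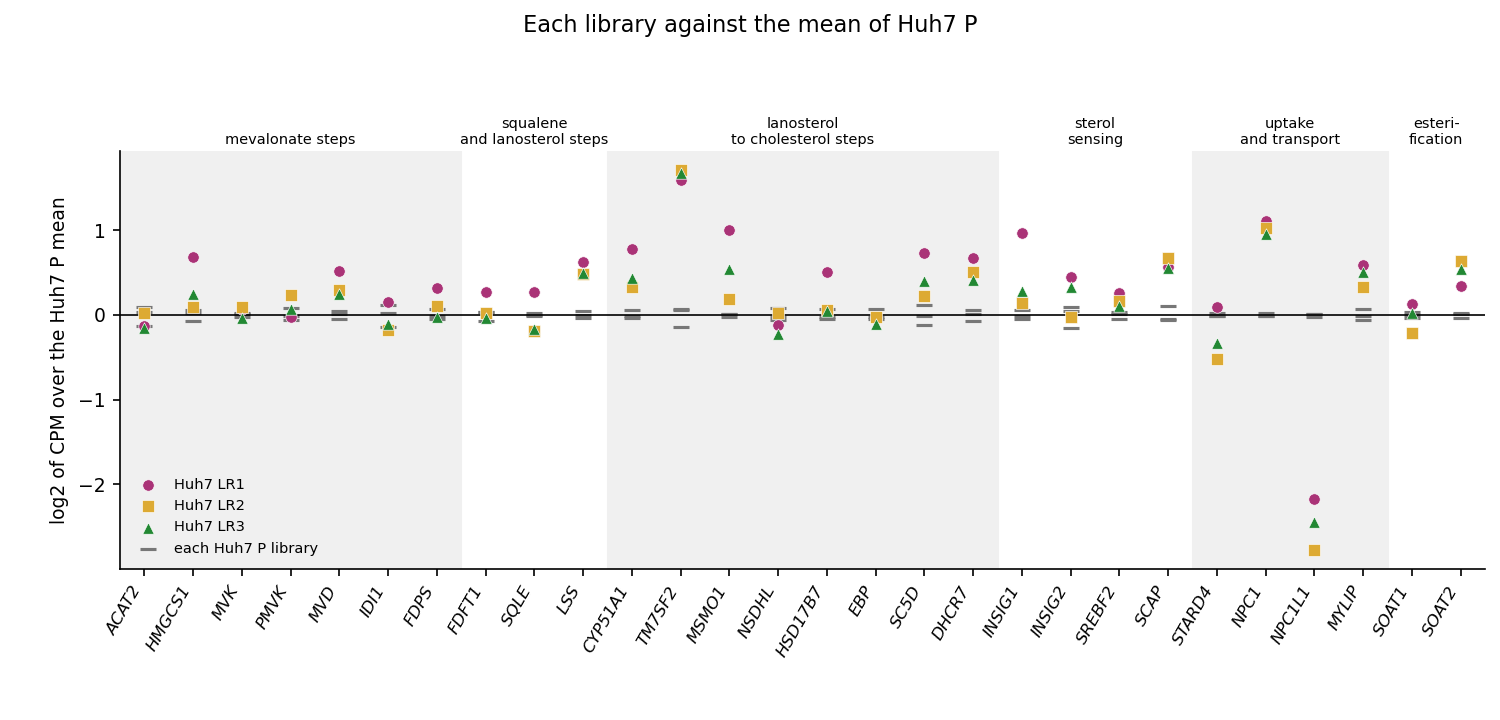
Log2 ratio of CPM in each library to the mean of the 3 Huh7 P libraries, by gene in pathway order (circles Huh7 LR1, squares Huh7 LR2, triangles Huh7 LR3, grey dashes each Huh7 P library). Huh7 LR1 lies above the other Huh7 LR libraries for 20 of 28 genes, whereas the 3 points of TM7SF2 and NPC1 lie close together.

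All 28 genes passed the filter on low counts, and the test was run over 17531 genes and loci. With edgeR's quasi-likelihood test and an adjusted p below 0.05, 13 of the 28 rose in Huh7 LR and 1 fell, whereas 23.3% of all genes and loci tested were higher and 22.4% lower. The remaining 14 did not pass. The share of higher members, 46.4%, was above that of all features, and the median log2 fold change was 0.24 for the members and 0.0046 for all features. Without Huh7 LR1, 12 of the same 13 genes were higher and HMGCS1 was not (adjusted p = 0.109), 3 were lower, the median of the members was 0.16 and 22.1% of all features were higher. Past 2-fold at an adjusted p under 0.001, 2 members were higher (TM7SF2 and NPC1) and 1 was lower (NPC1L1), against 4.43% and 1.78% of all features. The 3 values of Huh7 LR all exceeded those of Huh7 P for 14 members and all fell short of them for 1, as they did for 28.2% and 27.7% of all features. With bulk RNA, fewer cells with a transcript and less of the transcript per cell cannot be told apart.

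**Figure D2:**
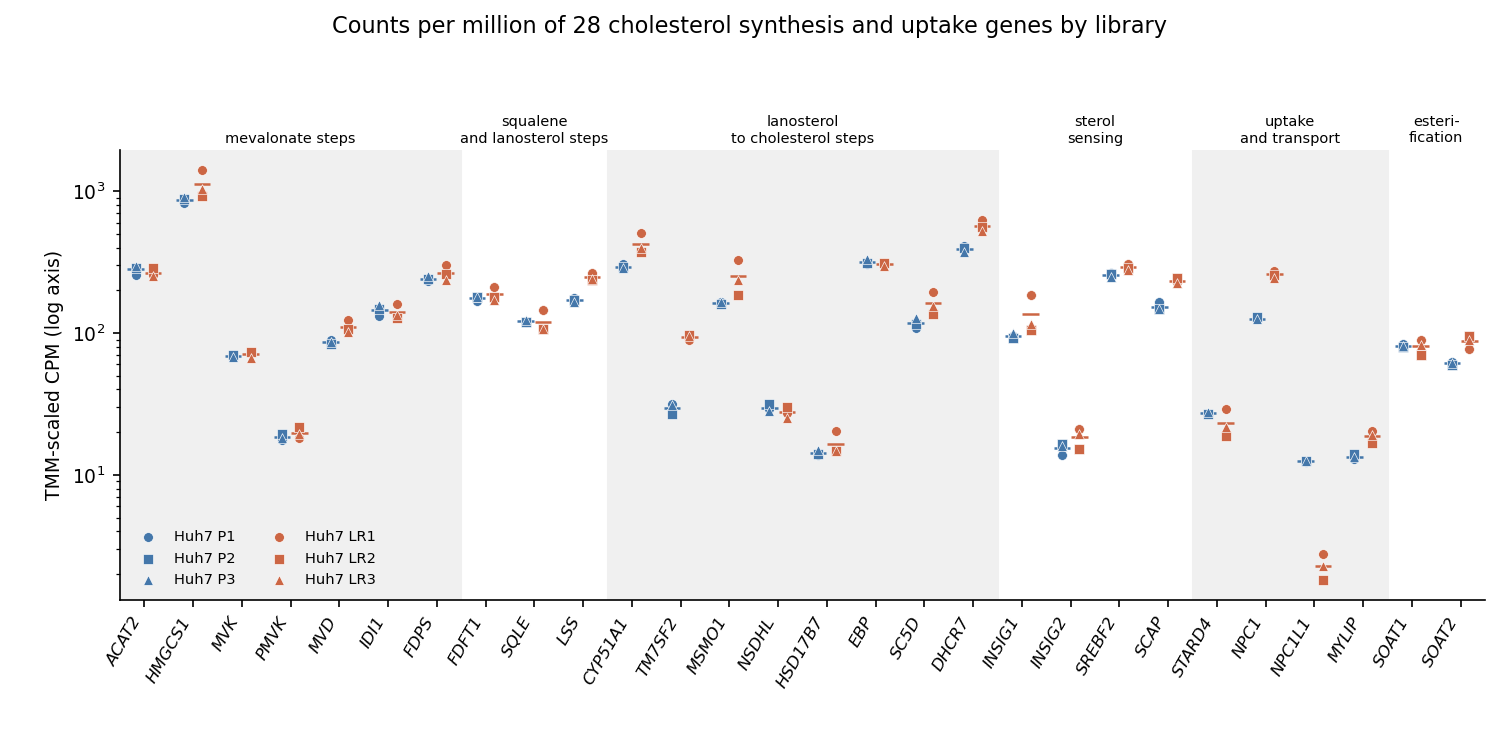
CPM of each gene in each library on a log axis, in pathway order (blue Huh7 P, orange Huh7 LR, with a symbol for each library number and a bar at the mean of 3 libraries). The lines separate most clearly for TM7SF2, NPC1 and NPC1L1, and the circle of Huh7 LR1 sits above the other Huh7 LR points for HMGCS1, MSMO1 and INSIG1.

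By FPKM, HMGCS1 had the highest level in both lines (229 ± 8.38 in Huh7 P and 302 ± 68.8 in Huh7 LR, SD, n = 3). It was followed in Huh7 P by EBP (185 ± 20.0), FDPS (178 ± 4.36) and DHCR7 (142 ± 5.18), of which EBP and FDPS differed by less than the SD of EBP. In Huh7 LR, DHCR7 (208 ± 19.8), FDPS (202 ± 26.1) and EBP (182 ± 17.4) lay in that order, and FDPS differed from both by less than its SD, whereas DHCR7 exceeded EBP in each library. NPC1L1 had the lowest level of the 28 genes in both lines (2.69 ± 0.0121 and 0.429 ± 0.0928 FPKM). The FPKM of the 18 enzymes of synthesis summed to 1364, 1336 and 1375 in the Huh7 P libraries, against 1954, 1551 and 1569 in those of Huh7 LR. The sum was thus 1.25-fold higher in Huh7 LR, or 1.44-fold in Huh7 LR1 and 1.15-fold over Huh7 LR2 and LR3, and all 3 Huh7 LR sums exceeded all 3 Huh7 P sums.

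Most genes of the early, mevalonate steps did not pass the test. Of 7 genes, 2 rose (HMGCS1 and MVD) and none fell, with a median log2 fold change of 0.098. The share that rose, 28.6%, was close to the 23.3% of all features, of which 22.4% fell. HMGCS1, which makes HMG-CoA and is a classical SREBP2 target, was at 826, 885 and 904 CPM in Huh7 P and 1401, 927 and 1038 CPM in Huh7 LR. The groups did not overlap, but Huh7 LR2 lay only just above Huh7 P3. The log2 fold change was 0.36 (95% confidence interval 0.083 to 0.64, adjusted p = 0.0368) and 0.17 without Huh7 LR1. When any 1 of the Huh7 P libraries was left out, the log2 fold change of HMGCS1 was between 0.32 and 0.39, about as large, but its adjusted p was between 0.0759 and 0.115. MVD, the decarboxylase that yields isopentenyl diphosphate, was at 89.4, 83.6 and 87.1 CPM in Huh7 P and 124, 106 and 102 CPM in Huh7 LR, again without overlap. Its log2 fold change was 0.35 (95% confidence interval 0.17 to 0.53, adjusted p = 0.00467), and 0.27 without Huh7 LR1 (adjusted p = 0.00768).

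The 5 other genes of these steps overlapped between the lines and had intervals that included 0. ACAT2, the cytosolic thiolase at the entry of the pathway, had a log2 fold change of -0.082 (95% confidence interval -0.26 to 0.093). The kinases MVK and PMVK, which phosphorylate mevalonate in turn, had values of 0.043 (-0.10 to 0.19) and 0.098 (-0.11 to 0.30). IDI1, the isomerase of isopentenyl diphosphate, was at 131 to 157 CPM in Huh7 P and 128 to 161 CPM in Huh7 LR, with a log2 fold change of -0.036 (-0.25 to 0.18). FDPS, which makes farnesyl diphosphate, the branch point towards sterols and other isoprenoids, had a log2 fold change of 0.14 (-0.055 to 0.34). The upper limits of these 5 intervals lay below the estimate for MVD. However, the interval of MVD, 0.17 to 0.53, overlapped those of MVK, PMVK, IDI1 and FDPS, and a difference from MVD was not tested. Without Huh7 LR1 the log2 fold changes were -0.061 for ACAT2, 0.027 for MVK, 0.15 for PMVK, -0.14 for IDI1 and 0.042 for FDPS, and none passed. ACAT2 shares 397 exon bases on the opposite strand with TCP1 and 1141 with SOD2, and MVK shares 306 with MMAB. TCP1 had 26768 to 32125 counts in Huh7 P and 20152 to 23907 in Huh7 LR, against 17677 to 19516 and 16772 to 19989 for ACAT2. The overlapping SOD2 entry had 19 to 58 and 34 to 62 counts. MMAB had 4930 to 5714 and 5701 to 6176, against 4289 to 4967 and 4575 to 5114 for MVK. Since it is not stated whether counting used strand, reads of these partners cannot be told apart there. FDPS, CYP51A1 and HSD17B7 have 13 annotated pseudogenes in GENCODE release 29, and how reads shared with such copies were counted is not stated, so that their values are uncertain to that extent.

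The first committed steps towards sterols did not move together. FDFT1, which joins farnesyl diphosphate units into squalene, was at 167, 180.0 and 180.1 CPM in Huh7 P and 213, 179 and 172 CPM in Huh7 LR. SQLE, the oxygen-dependent squalene epoxidase, was at 119, 121 and 123 CPM in Huh7 P and 146, 106 and 107 CPM in Huh7 LR. In both, Huh7 LR1 lay above and the other Huh7 LR libraries within or below the range of Huh7 P. The log2 fold changes were 0.096 for FDFT1 (95% confidence interval -0.095 to 0.29) and -0.015 for SQLE (-0.26 to 0.23). Without Huh7 LR1, SQLE was lower (-0.18, adjusted p = 0.0418), and FDFT1 was at -0.0032. LSS, the cyclase that forms lanosterol, the first sterol, was at 176, 171 and 166 CPM in Huh7 P and 265, 238 and 240.4 CPM in Huh7 LR. Here all Huh7 LR libraries were high and close to each other. LSS rose 1.45-fold (log2 fold change 0.53, 95% confidence interval 0.38 to 0.69, adjusted p = 0.000118), with 0.48 without Huh7 LR1.

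From lanosterol to cholesterol, 5 of 8 genes rose (62.5%, against 23.3% of all features) and none fell (against 22.4%). The median log2 fold change of 0.50 was higher than at the mevalonate steps. A difference between the groups of steps was not tested. TM7SF2 (chr11:65111845-65116384, plus strand, GRCh38), a sterol C14 reductase, was at 31.4, 26.9 and 31.1 CPM in Huh7 P and 90.0, 97.2 and 95.1 CPM in Huh7 LR. The 3 Huh7 LR libraries lay close together and far above Huh7 P. TM7SF2 rose 3.16-fold (log2 fold change 1.66, 95% confidence interval 1.48 to 1.83, adjusted p = 1.73e-07), with 1.69 without Huh7 LR1. It shares 16 exon bases (0.5% of its exon sequence) on the same strand with VPS51, which had 6451 to 7467 counts in Huh7 P and 6822 to 8066 in Huh7 LR, against 1662 to 2250 and 5867 to 6812 for TM7SF2. With the counts of both genes added together, the value was 0.60 (adjusted p = 4.07e-05), under the 2-fold threshold.

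CYP51A1, the lanosterol demethylase, was at 305, 291 and 287 CPM in Huh7 P and 505, 370.5 and 398 CPM in Huh7 LR. It rose 1.44-fold (log2 fold change 0.53, adjusted p = 0.00184), with 0.38 without Huh7 LR1. The groups were separate, with Huh7 LR1 highest. A second annotated gene on the same strand, AC000120.2, shares 79.4% of the exon bases of CYP51A1 and had 0 counts in all 6 libraries. Another, AC000120.3, shares 99 bases (2.8%) and had 60 to 143 counts in Huh7 P and 46 to 116 in Huh7 LR. MSMO1, the methylsterol monooxygenase of the next steps, was at 165, 161 and 165 CPM in Huh7 P and 329, 186 and 238 CPM in Huh7 LR. Its values in Huh7 LR were the most scattered of the 8 genes relative to their mean (251 ± 72.2 CPM, SD, n = 3), yet all were above Huh7 P. MSMO1 rose 1.53-fold (log2 fold change 0.62, 95% confidence interval 0.27 to 0.96, adjusted p = 0.00819), with 0.37 without Huh7 LR1 (adjusted p = 0.00819).

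The final desaturation and reduction also rose. SC5D, the C5 desaturase, was at 109, 116 and 127 CPM in Huh7 P and 195, 137 and 155 CPM in Huh7 LR (log2 fold change 0.47, adjusted p = 0.00785). Without Huh7 LR1 it was 0.31 (adjusted p = 0.0127). DHCR7, the reductase that completes cholesterol from 7-dehydrocholesterol, was at 408, 397 and 375 CPM in Huh7 P and 625, 559.9 and 523 CPM in Huh7 LR. For both genes each Huh7 LR library exceeded each Huh7 P library, and those of DHCR7 were the less scattered. DHCR7 rose 1.45-fold (log2 fold change 0.53, 95% confidence interval 0.36 to 0.71, adjusted p = 0.000283), with 0.46 without Huh7 LR1. In between lie NSDHL and HSD17B7, which act with MSMO1 in removing the methyl groups at C4, and the isomerase EBP. NSDHL had a log2 fold change of -0.10 (-0.30 to 0.088) and EBP of -0.058 (-0.21 to 0.090), and their libraries overlapped. HSD17B7 was at 13.8, 14.02 and 14.96 CPM in Huh7 P and 20.2, 14.8 and 14.7 CPM in Huh7 LR, so that only Huh7 LR1 stood above Huh7 P (log2 fold change 0.22, -0.060 to 0.50). Without Huh7 LR1 the values were -0.094 for NSDHL, -0.068 for EBP and 0.051 for HSD17B7.

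**Figure D3:**
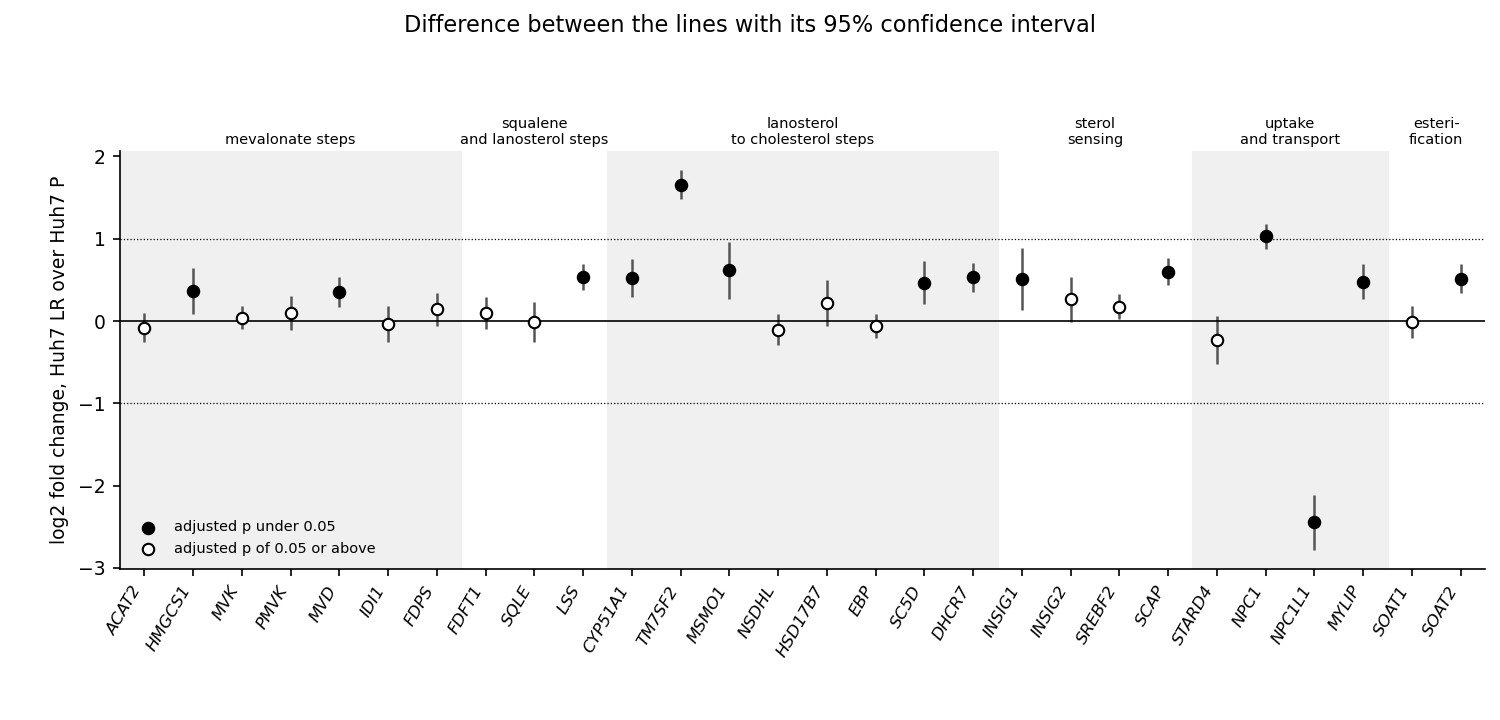
Log2 fold change of Huh7 LR over Huh7 P with its 95% confidence interval from edgeR, in pathway order (filled circles pass an adjusted p of 0.05, dotted lines mark 2-fold). TM7SF2 at 1.66, NPC1 at 1.03 and NPC1L1 at -2.44 lie past 2-fold, and of the 7 early genes HMGCS1 at 0.36 and MVD at 0.35 lie above 0 with their intervals.

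In the sterol sensor, 2 of 4 genes rose (50%, against 23.3% of all features). SCAP, the escort of SREBP2, was at 165, 147 and 148 CPM in Huh7 P and 227, 245 and 225 CPM in Huh7 LR. All Huh7 LR libraries were high, and Huh7 LR2 rather than LR1 was the highest. SCAP rose 1.51-fold (log2 fold change 0.60, 95% confidence interval 0.44 to 0.76, adjusted p = 7.81e-05), with 0.61 without Huh7 LR1. INSIG1, the retention factor that is itself induced by SREBP2, was at 94.98, 92.2 and 99.8 CPM in Huh7 P and 187, 106 and 116 CPM in Huh7 LR. The difference rested largely on Huh7 LR1, although the other Huh7 LR libraries also lay above Huh7 P. Its log2 fold change was 0.51 (0.14 to 0.89, adjusted p = 0.0295) and 0.22 without Huh7 LR1 (adjusted p = 0.032), and between 0.49 and 0.54 when any 1 Huh7 P library was left out, with an adjusted p between 0.0697 and 0.0899. With the Wald test of DESeq2 on all 6 libraries it was also 0.51, with an adjusted p of 0.134. INSIG2, the related retention factor, had 13.9 to 16.4 CPM in Huh7 P and 15.2 to 21.1 CPM in Huh7 LR (log2 fold change 0.26, -0.012 to 0.54, and 0.16 without Huh7 LR1), and it passed only without Huh7 LR2 (0.40, adjusted p = 0.012). SREBF2 itself was at 264, 260.1 and 249 CPM in Huh7 P and 307, 287 and 277 CPM in Huh7 LR. Although the libraries did not overlap, the difference was small, with a log2 fold change of 0.17 (0.024 to 0.33), an adjusted p of 0.0578, and 0.13 without Huh7 LR1. SREBF2 passed with the Wald test of DESeq2, with at least 10 counts required in every library and without Huh7 LR2 (adjusted p = 0.032, 0.0362 and 0.0418).

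Among the genes of uptake and transport, changes of opposite direction were found. NPC1 (chr18:23506184-23586898, minus strand), which moves cholesterol out of late endosomes and lysosomes, was at 125, 129 and 126 CPM in Huh7 P and 273, 258 and 246 CPM in Huh7 LR. All Huh7 LR libraries were about double those of Huh7 P. NPC1 rose 2.05-fold (log2 fold change 1.03, 95% confidence interval 0.88 to 1.18, adjusted p = 1.28e-06), and the log2 fold change was 0.99 without Huh7 LR1, so that it then missed the 2-fold threshold. NPC1 overlaps RMC1 on the opposite strand by 604 exon bases (6% of its own), and RMC1 had 1404 to 1471 counts in Huh7 P and 2357 to 2788 in Huh7 LR, against 7958 to 8976 and 16760 to 18049 for NPC1. NPC1L1 (chr7:44512535-44541315, minus strand), a sterol importer of the apical membrane of hepatocytes and enterocytes and the target of ezetimibe, was at 12.2, 12.6 and 12.6 CPM in Huh7 P and 2.76, 1.83 and 2.29 CPM in Huh7 LR. It fell in every Huh7 LR library, by 5.44-fold (log2 fold change -2.44, 95% confidence interval -2.78 to -2.11, adjusted p = 9.01e-07), and the log2 fold change was -2.60 without Huh7 LR1. With limma-trend on FPKM with 1 added, a large amount beside its level, the value was -1.37 (adjusted p = 2.39e-06). Among the enterocyte markers, VIL1 and APOA4 fell and SI and CDX2 rose, so that NPC1L1 moved with some of them and against others.

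MYLIP, an LXR-induced ubiquitin ligase that marks lipoprotein receptors for degradation, was at 12.9, 14.1 and 13.3 CPM in Huh7 P and 20.2, 16.9 and 19.03 CPM in Huh7 LR. The lines were separate, and MYLIP rose 1.39-fold (log2 fold change 0.48, adjusted p = 0.00208), with 0.42 without Huh7 LR1. STARD4, a soluble sterol carrier, was at 26.9, 27.0 and 27.6 CPM in Huh7 P and 29.04, 18.9 and 21.6 CPM in Huh7 LR. Huh7 LR1 lay above and the other Huh7 LR libraries below all of Huh7 P, with a log2 fold change of -0.23 (-0.52 to 0.064). Without Huh7 LR1, STARD4 was lower by a log2 fold change of -0.42 (adjusted p = 0.00291). Of the esterifying enzymes, SOAT2, the form found in hepatocytes and enterocytes, was at 62.2, 59.7 and 61.3 CPM in Huh7 P and 77.5, 95.2 and 89.0 CPM in Huh7 LR. It rose 1.43-fold (log2 fold change 0.51, 95% confidence interval 0.34 to 0.69, adjusted p = 0.00041), with Huh7 LR1 the lowest of its line, and the log2 fold change was 0.59 without that library. SOAT1, the widely expressed form, was at 79.4 to 83.7 CPM in Huh7 P and 70.1 to 89.2 CPM in Huh7 LR (log2 fold change -0.015, -0.21 to 0.18, and -0.094 without Huh7 LR1). By FPKM, SOAT2 stood above SOAT1 in both lines (28.2 ± 0.544 against 10.95 ± 0.365 in Huh7 P and 41.3 ± 3.85 against 11.1 ± 1.40 in Huh7 LR, SD, n = 3).

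SREBP2 and NF-Y act through known sequence motifs, and these were searched in the promoters of the genes. RefSeq promoter windows (GRCh38.p14, 250 bases before to 50 after a start) were matched by symbol for 24 of the 28 genes, with 30 windows in all, since 5 genes have more than 1 start. ACAT2, FDFT1, SQLE and SOAT2 are named only. The letters of the NF-Y box, CCAAT on either strand, were present in 21 of the 30 windows (70.0%) against 34.6% of 35116 windows of all genes, and at least 2 boxes in 43.3% against 10.8%. By gene, 19 of 24 held a box and PMVK, CYP51A1, INSIG2, SCAP and NPC1 held none. Within a single window, MVK and NSDHL held 5 boxes and MSMO1 held 4. The sterol regulatory element core, searched as CACNCCAC on both strands, was found in 5 windows (16.7% against 5.87%), those of IDI1, INSIG1, SREBF2 and a pair of overlapping windows of SC5D that share 1 match. The E-box CACGTG was in 5 windows (16.7% against 7.26%), of LSS, INSIG1, SCAP and the same pair of SC5D. Boxes were thus found both in genes that rose (MVD, MSMO1) and in genes that did not pass (MVK, NSDHL, EBP). A match describes only letters in the window, a missing match does not show that an element is absent, and binding was not measured.

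**Figure D4:**
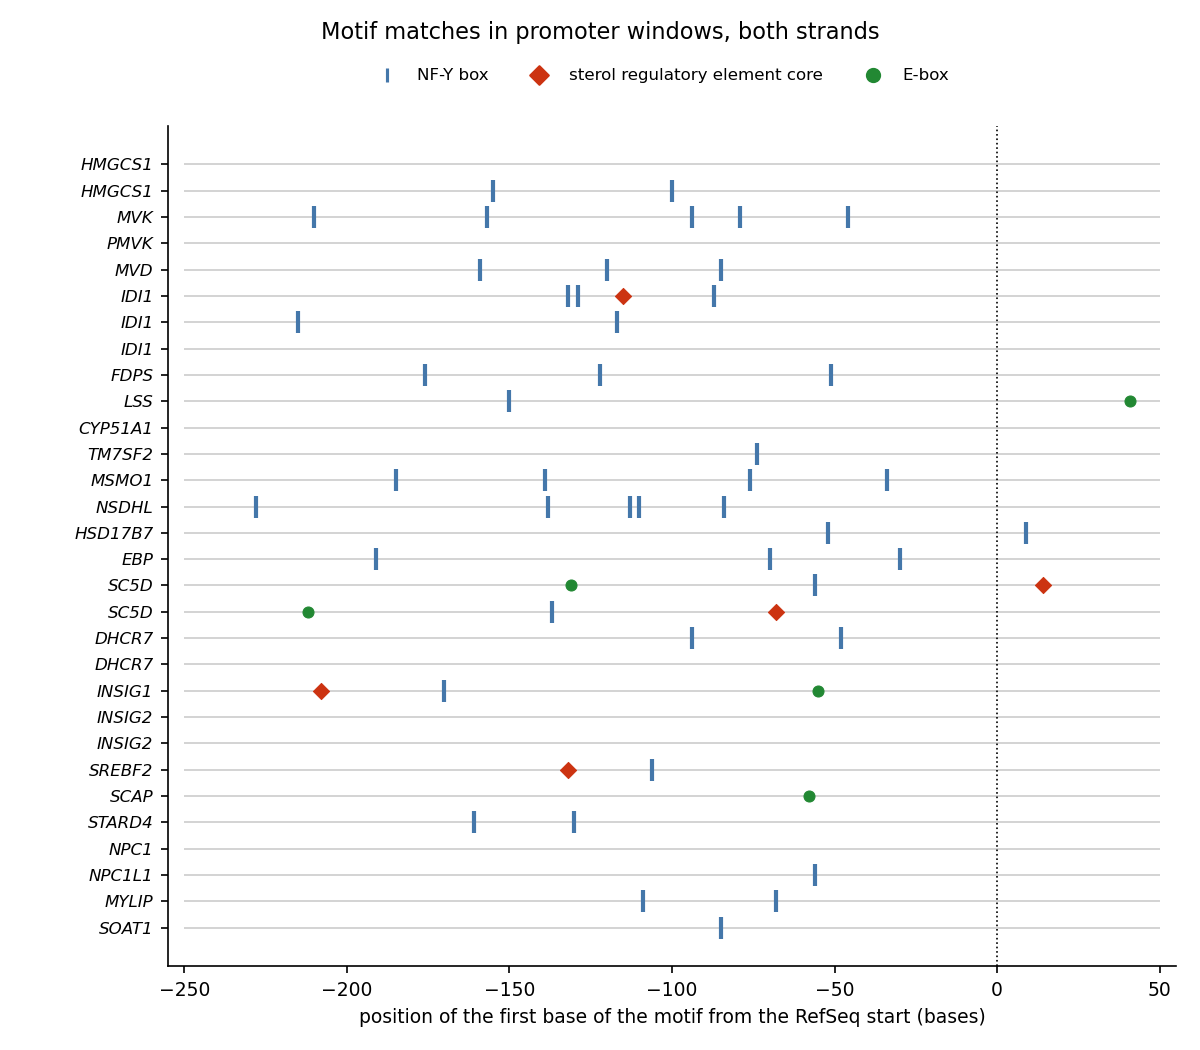
Position of each motif match, as bases from the RefSeq start, in 30 promoter windows of 24 genes (bars NF-Y box, diamonds sterol regulatory element core, circles E-box, both strands). NF-Y boxes lie before the start except for 1 box of HSD17B7, and 4 genes hold a match to the sterol regulatory element core.

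Stretches of 4 promoters show these motifs, each being the longest run before the start that lies outside exons annotated in GENCODE release 29, written 5′ to 3′ on the strand of the gene. They belong to MVD and MSMO1, which rose and hold several NF-Y boxes, to INSIG1, which has a sterol regulatory element core, and to NPC1L1, which fell. Capitals mark CCAAT or its reverse complement and, in INSIG1, also the reverse complement of the core beginning 208 bases before the start. The MVD stretch lies at chr16:88663162-88663297 (minus strand), MSMO1 at chr4:165327419-165327622 (plus strand), INSIG1 at chr7:155297628-155297775 (plus strand) and NPC1L1 at chr7:44541331-44541580 (minus strand).
MVD: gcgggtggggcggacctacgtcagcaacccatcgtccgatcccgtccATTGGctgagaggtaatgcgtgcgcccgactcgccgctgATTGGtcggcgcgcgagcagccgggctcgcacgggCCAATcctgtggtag
MSMO1: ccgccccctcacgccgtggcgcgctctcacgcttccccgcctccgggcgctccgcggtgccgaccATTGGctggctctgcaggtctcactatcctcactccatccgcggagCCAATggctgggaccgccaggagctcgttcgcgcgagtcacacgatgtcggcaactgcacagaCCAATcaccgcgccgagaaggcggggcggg
INSIG1: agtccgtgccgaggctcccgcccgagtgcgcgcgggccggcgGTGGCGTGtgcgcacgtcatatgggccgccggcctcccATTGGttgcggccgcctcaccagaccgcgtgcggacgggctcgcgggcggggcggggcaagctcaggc
NPC1L1: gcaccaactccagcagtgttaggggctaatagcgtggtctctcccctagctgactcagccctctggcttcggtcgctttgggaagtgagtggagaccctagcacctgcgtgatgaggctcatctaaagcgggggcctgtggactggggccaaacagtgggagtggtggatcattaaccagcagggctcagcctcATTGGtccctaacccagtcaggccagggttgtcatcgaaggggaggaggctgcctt
The MVD and MSMO1 stretches each carry 3 NF-Y boxes, and another box of MSMO1 lies closer to the start. In INSIG1 the core begins 208 and the single box 170 bases before the start, and NPC1L1 has 1 box and no core.

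Other genes of the pathway were taken from 5 lists of 60 genes, of which 57 could be tested, and 20 rose and 12 fell, with a median log2 fold change of 0.13. The share that rose, 35.1%, was above the 23.3% of all features, and the share that fell, 21.1%, was close to 22.4%. Counts are given by list, and a difference between lists was not tested. Among 13 tested genes of the non-sterol branch, which takes isoprenoid diphosphates to ubiquinone, dolichol and prenylated proteins, 7 fell and 1 (NUS1) rose, with a median of -0.31. GGPS1, which makes geranylgeranyl diphosphate, was at 34.8, 34.7 and 36.1 CPM in Huh7 P and 21.8, 21.7 and 20.0 CPM in Huh7 LR, without overlap and with Huh7 LR1 close to Huh7 LR2. GGPS1 fell 1.66-fold (log2 fold change -0.73, adjusted p = 2.3e-05). PGGT1B, a subunit of a protein prenyltransferase, fell 1.59-fold (log2 fold change -0.67, adjusted p = 0.000591), or -0.35 with limma-trend and 1 FPKM added. PDSS1, which makes the side chain of ubiquinone, fell 1.43-fold (adjusted p = 0.0156). PDSS1 overlapped between the lines and lost its call when Huh7 LR3 or Huh7 P3 was left out (adjusted p = 0.0514 and 0.0803). Its log2 fold change was then -0.50 and -0.40, against -0.52 with all libraries.

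Of 19 tested genes of uptake and intracellular cholesterol transport, 10 rose and 1 (LIMA1) fell, with a median log2 fold change of 0.28. These shares, 52.6% and 5.26%, stood against 23.3% and 22.4% of all features. NPC2, which hands cholesterol to NPC1 in the lysosome, was at 47.9, 51.4 and 44.7 CPM in Huh7 P and 81.2, 86.4 and 91.2 CPM in Huh7 LR. It thus moved in the same direction as NPC1 in all libraries, rising 1.80-fold (log2 fold change 0.85, adjusted p = 9.69e-06). VLDLR, a receptor for triglyceride-rich lipoproteins, rose 1.73-fold (log2 fold change 0.79, adjusted p = 0.00014), but limma-trend gave a log2 fold change of 0.50 with 0.1 FPKM added and 0.30 with 1 FPKM added. SCARB1, the receptor for high-density lipoprotein, rose 1.51-fold (adjusted p = 0.000287). LIMA1, which has been linked to NPC1L1 trafficking in the intestine, fell 1.35-fold (adjusted p = 0.000518). OSBPL5 had no counts in any library, and GRAMD1B did not pass the filter on low counts.

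Of 12 genes of SREBP processing and sterol-regulated degradation, 3 rose, 1 fell (UBXN8) and 8 did not pass, with a median of 0.073. The share that rose, 25%, was close to the 23.3% of all features, and 8.33% fell against 22.4%. SYVN1, a ubiquitin ligase of the endoplasmic reticulum, rose 1.35-fold (adjusted p = 0.000387), and UBXN8 fell 1.79-fold (adjusted p = 0.000411). MBTPS1, the protease that makes the first cut in SREBP, rose 1.24-fold (adjusted p = 0.00653). Among 3 genes of ester hydrolysis, CES1, an abundant hepatic carboxylesterase, was at 28.2, 31.7 and 30.8 CPM in Huh7 P and 132, 135 and 138 CPM in Huh7 LR. CES1 rose 4.47-fold (log2 fold change 2.16, adjusted p = 2.12e-08), the largest fold of the 57 genes, and all Huh7 LR libraries were within a narrow range. NCEH1 rose 1.23-fold (log2 fold change 0.30, adjusted p = 0.0103). When Huh7 P2 was left out its call was lost, although the log2 fold change was about as large (0.29, adjusted p = 0.0509). LIPE, below 0.5 CPM, did not pass. Of 10 genes that supply acetyl-CoA and reducing cofactors, 4 rose and 3 fell (40% and 30%, against 23.3% and 22.4% of all features). ACSS2, which makes acetyl-CoA from acetate and is an SREBP target, was at 67.5, 72.1 and 75.0 CPM in Huh7 P and 160.2, 120.2 and 119 CPM in Huh7 LR. As with several enzymes of synthesis, Huh7 LR1 was the highest, and ACSS2 rose 1.86-fold (log2 fold change 0.90, adjusted p = 7.44e-05), with 0.74 without Huh7 LR1.

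**Figure D5:**
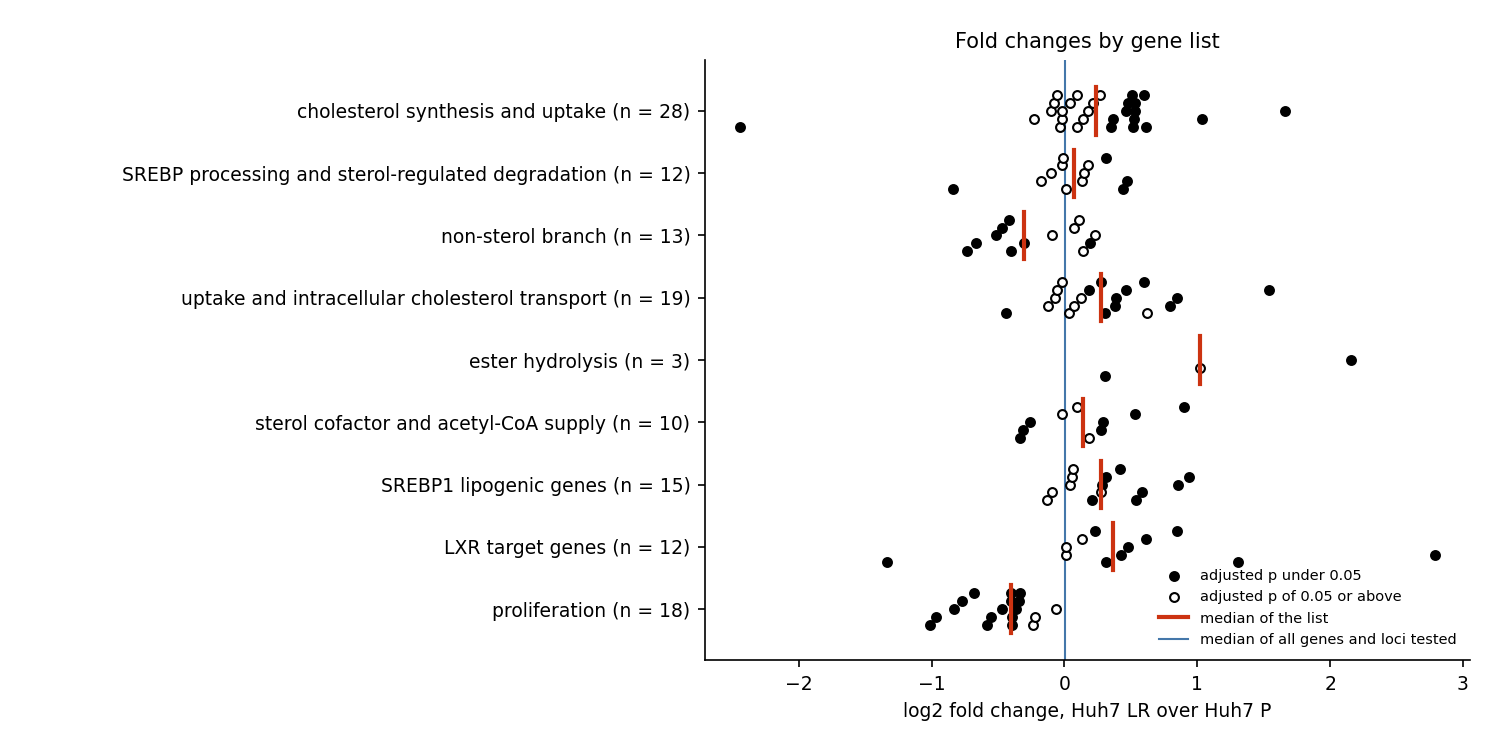
Log2 fold change of each tested gene by list (filled circles pass an adjusted p of 0.05, red bars are medians of lists, the blue line is the median of all 17531 features, and MID1IP1 is not drawn). The non-sterol branch and the proliferation genes lie mostly below 0, and the cholesterol genes and transport genes mostly above.

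Neighbouring programmes were described in the same way. Of 15 tested lipogenic genes under SREBP1, 8 rose and 1 (MID1IP1) fell, with a median of 0.28, whereas 23.3% of all features rose and 22.4% fell. Huh7 LR1 stood apart here too, with a summed level of 1518 FPKM against 1224 and 1273 FPKM in Huh7 LR2 and LR3, and 1138, 1075 and 1037 FPKM in the Huh7 P libraries. Without Huh7 LR1, 6 of the 15 rose and 2 fell, with a median of 0.13, whereas 3948 and 3872 of 17901 features did. PNPLA3 rose 1.92-fold and ACSL1 1.81-fold (adjusted p = 0.000107 and 1.19e-05). MID1IP1 had 1.76, 1.78 and 2.08 CPM in Huh7 P and no counts in Huh7 LR, so that it was at least 42.3-fold lower against 3 counts per library, and the median of the list was the same with this bound. With limma-trend its log2 fold change was -2.94 with 0.1 FPKM added and -0.74 with 1 FPKM added. SREBF1 itself had 163 ± 5.59 CPM in Huh7 P and 164 ± 6.38 CPM in Huh7 LR (SD, n = 3) and a log2 fold change of 0.010 (95% confidence interval -0.14 to 0.16). LXR factors sense oxysterols and raise cholesterol export. The list of their target genes includes MYLIP and shares SCD and SREBF1 with other lists. It also holds the genes of the factors themselves, NR1H3 and NR1H2. Of its 12 tested genes, 8 rose (66.7%, against 23.3% of all features) and 1 fell (8.33%, against 22.4%). The 8 include NR1H2 (log2 fold change 0.23, adjusted p = 0.019), whereas NR1H3 did not pass. Without Huh7 LR1 the numbers that rose and fell were the same. APOE was at 960.3, 922 and 914 CPM in Huh7 P and 2367, 2201 and 2350.3 CPM in Huh7 LR, a 2.47-fold rise (adjusted p = 2.47e-07). ABCG1 rose 6.92-fold from 0.289 ± 0.0977 to 2.02 ± 1.05 CPM (SD, n = 3, adjusted p = 0.00022), and PLTP fell 2.52-fold (adjusted p = 3.06e-05). ABCA1, the exporter most often used as an LXR readout, had a log2 fold change of 0.014 (95% confidence interval -0.19 to 0.22).

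Genes of cell proliferation were also listed, and of these 18 genes 15 fell and none rose, with a median log2 fold change of -0.40, against 22.4% of all features that fell. Their FPKM summed to 1460, 1503 and 1499.8 in the Huh7 P libraries, against 1016, 1212 and 1104 in those of Huh7 LR, so that Huh7 LR1, the highest library for most cholesterol genes, was the lowest here. Without it, 15 fell and none rose, with a median of -0.31. MKI67 was at 754, 736 and 714 CPM in Huh7 P and 365, 347 and 383 CPM in Huh7 LR, and fell 2.01-fold (adjusted p = 1.42e-06). CDK1 fell 1.96-fold and BUB1 1.78-fold (adjusted p = 5.41e-06 and 3.02e-06). For the 15 that fell, each Huh7 LR library was below each Huh7 P library, as was so for 27.7% of all features. These 15 were called from the same values, so that this adds no support to the calls. The part of the proliferation genes in the results for the cholesterol genes was not tested.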

How the data were processed

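The authors deposited whole-number read counts per gene, not normalised, and FPKM values scaled for transcript length and library size. Per the labels, the submitters' processing notes name TopHat2, Cufflinks and DESeq without versions and mm10, a mouse build, whereas the identifiers are human. The labels also describe extraction from an insect. Counting, annotation and strandedness are not given in the sources used here. Lines without a gene (34) were left out, and 2.86% to 3.35% of counts were on loci with no annotated gene. A count of 0 allows up to 3 counts, 0.042 to 0.048 CPM, for counting error only.

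The analysis used edgeR 4.0.16 under R 4.3.3 (filterByExpr with minimum count 10 and minimum total 15, TMM factors 0.977 to 1.03, quasi-likelihood test, Benjamini-Hochberg adjustment over 17531 features), with all 6 libraries and no covariate. The biological coefficient of variation was 12.7%. P-values measure the spread between samples of 1 line each. Coordinates and overlaps came from GENCODE release 29, in which all 28 identifiers had the same symbol. The test was tried on simulated data, with calls past 2-fold at an adjusted p under 0.001 only. That simulation does not cover the calls of smaller changes at an adjusted p under 0.05. The members and lists were chosen with earlier results of these data known. All 28 members are named, and from other lists the genes past 2-fold at an adjusted p under 0.001 and the 3 largest changes per list among those at an adjusted p under 0.05 with at least 1 CPM in 1 line, of which some are left unnamed. Cell type markers were listed by type, and those at or near 0 or most abundant are named beside their sums. NUS1, LIMA1, MBTPS1, LIPE, SREBF1, ABCA1, NR1H3, NR1H2, OSBPL5, GRAMD1B, VWF, FABP2 and VIL1, and the promoter stretches printed, were chosen after their values were seen. Alternatives were DESeq2 1.42.0 (size factors, Wald test), other filters, a replicate block, limma-trend (limma 3.58.1) on FPKM with 0.1 or 1 added before taking log2 (0.5 FPKM or more required in 3 libraries), summed overlapping genes, a 2-fold call at an adjusted p under 0.05, and each library left out. Figures were drawn with matplotlib 3.10.9.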

Additional observations from a re-analysis of the deposited data

How the results depend on the processing

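Between 12 and 15 of the 28 genes were higher with each Huh7 LR library left out and 11 with each Huh7 P library left out, and 13 or 14 under the other alternatives, against 13 in the analysis as reported. The number lower ranged from 1 to 3, with 3 (NPC1L1, SQLE and STARD4) only without Huh7 LR1. The number higher past 2-fold was 1 when overlapping genes were summed, because TM7SF2 was then counted with VPS51, and 1 or 2 with a library left out, with 1 when NPC1 fell to 0.99 without Huh7 LR1. The number lower past 2-fold was 1 throughout. Of the other pathway genes, 17 to 23 rose and 8 to 13 fell over all alternatives. Of 392 values of single members under 14 alternatives, 365 kept both direction and side of the threshold. A further 8 lost their call, all of HMGCS1 (4) and INSIG1 (4, including an adjusted p of 0.134 with the Wald test of DESeq2), and 6 gained one. These were SREBF2 in 3 alternatives (adjusted p = 0.032, 0.0362 and 0.0418), INSIG2 without Huh7 LR2 (adjusted p = 0.012), and SQLE and STARD4 without Huh7 LR1. The remaining 13 changed sign close to 0, none past the threshold in either setting. IDI1 was at 0.034 and 0.033 with limma-trend (0.1 or 1 FPKM added) and between -0.14 and 0.038 with a library left out. SOAT1 was at 0.0052 and 0.0054 with limma-trend, at 0.0028 with at least 10 counts in every library and between -0.094 and 0.085 with a library left out. SQLE was at 0.0036 with at least 10 counts in every library and between -0.18 and 0.074 with a library left out, and FDFT1 between -0.0032 and 0.15. The cause of these changes was not tested. With 1 FPKM added, limma-trend gave log2 fold changes over 1.5 times smaller for genes of low FPKM that kept their call, -1.37 for NPC1L1, -0.35 for PGGT1B, 0.30 for VLDLR (0.50 with 0.1 added) and 0.56 for COL1A1. MID1IP1, without counts in Huh7 LR, was at -0.74 with 1 FPKM added and -2.94 with 0.1 FPKM added. Among the other genes named by the rule, 453 of 457 values kept their direction and call.

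The labels number the samples 1 to 3 in both lines, but numbers alone do not show that samples are paired. The correlation of same-numbered deviations was 0.03 in each pair, which gave no sign of pairing but cannot exclude it. With a replicate block, 13 members were higher and 1 lower, 2 and 1 past 2-fold, and 20 other pathway genes were higher and 12 lower, as without it. The intervals show the precision that 3 libraries a line gave, and Huh7 LR is a single derived line.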
